A study of Mus musculus with 12 samples.

Results

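The tumour necrosis factor (TNF) superfamily genes described here are 7 ligand genes (Tnf, Tnfsf9, Tnfsf10, Tnfsf13b, Tnfsf14, Tnfsf15 and Ltb) and the receptor genes of TNF itself (Tnfrsf1a and Tnfrsf1b). They were found by gene symbol among the 54532 genes of the count files, and each of the 9 symbols matched 1 gene. All 9 had counts and all 9 passed the filter on low counts that left 14324 genes for testing. RNA-seq was done on CD11b+Ly6Chi monocytes, the classical inflammatory monocytes, sorted from mouse bone marrow. The 4 groups of 3 libraries each were succinate mice (300 mM for 7 days) with LPS (lipopolysaccharide, a bacterial ligand of Toll-like receptor 4) for 4 h in culture, control mice (no succinate) with LPS for 4 h, succinate mice unstimulated and control mice unstimulated. No genetic change is named in the labels for any group, and strain, age, route of succinate, LPS dose and the number or pooling of animals are not stated in the sources. The labels do not name separate mice behind the 3 libraries of each group, so the p-values reflect only the spread of these libraries, which may be technical.

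TNF superfamily ligands are mostly made as membrane proteins that bind as trimers to receptors of the TNF receptor superfamily. Some, TNF above all, are also cut from the cell surface by the protease ADAM17. The receptor TNFR1 (Tnfrsf1a) is found on most cells and carries a death domain, while TNFR2 (Tnfrsf1b) is found mainly on haematopoietic and endothelial cells and recruits TRAF adaptors. Both lead to NF-kB. Monocytes and macrophages exposed to LPS are a classical source of TNF, and the TNF mRNA is known to be held short-lived by AU-rich elements in its 3′ untranslated region (3′ UTR).

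Total counts lay between 15975882 and 18306747 per library, with a median of 16980357, and log2 fold changes between 2 groups had a median standard error of 0.19 over all tested genes. The sorted type was checked against 10 markers of Ly6C-high monocytes, whose summed level was 8907 to 10615 CPM (read counts scaled to a common library size) in succinate mice with LPS, 11000 to 12106 CPM in control mice with LPS, 8472 to 11402 CPM in unstimulated succinate mice and 11415 to 12957 CPM in unstimulated control mice. The summed transcripts of 8 neutrophil granule and neutrophil marker genes were at a like height, with 8377 to 8835, 7570 to 10643, 4874 to 5944 and 5320 to 7894 CPM in the same order of groups. The granule genes Ngp, Camp, Ltf and Elane made up most of these sums, each at a group mean of 764 CPM or more. The others were lower, with group means of at most 147 (Mmp8), 37.4 (Retnlg), 26.1 (Cxcr2) and 7.73 CPM (Ly6g). In these bulk samples fewer cells of a type and less RNA per cell cannot be told apart. The libraries also fell into 2 classes by 5 genes known from earlier results (S100a4, Rpl24 and 3 predicted genes or pseudogenes): replicate 3 of control mice with LPS and, among unstimulated libraries, replicates 2 and 3 of succinate and of control mice were higher in them, and the other 7 libraries, among them all of succinate mice with LPS, were lower. With this class as a covariate, the number of members called was 7 in place of 8 for LPS in succinate mice and the same in the other comparisons.

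In the GRCm38 assembly (GENCODE M21 annotation) 4 of the 9 members lie on chromosome 17. Ltb, at chr17:35194439-35196320 on the plus strand, and Tnf, at chr17:35199381-35202007 on the minus strand, are 3060 bp apart and converge, and Lta, the third lymphotoxin-TNF gene, lies 1157 bp beyond the start of Tnf. Tnfsf9 (chr17:57105325-57107757, plus strand) and Tnfsf14 (chr17:57189492-57194177, minus strand) are 81734 bp apart. Tnfsf15 (chr4:63727084-63745113, minus strand) and Tnfrsf1b (chr4:145213463-145246870, minus strand) share chromosome 4 but lie far apart. Tnfsf10 is at chr3:27317028-27342427, Tnfsf13b at chr8:10006467-10039072 and Tnfrsf1a at chr6:125349362-125362484, all on the plus strand. Exons of Tnfsf9 overlap the antisense gene Gm11110 over 192 bp, and because the use of strand in the counting is not stated, reads of this stretch cannot be assigned to Tnfsf9 with certainty. All counts are over exons of whole genes, so they do not tell isoforms apart.

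Promoter windows of RefSeq (GRCm38.p6), which run from 250 bases before to 50 bases after the transcription start, were held for 8 of the 9 members, all but Tnfsf9. Windows were searched on both strands for an NF-kB-like motif (GGANNTTCC), an AP-1 motif (TGANTCA), an interferon-response-like motif (GAAANNGAA) and a TATA box (TATAAA). The windows of the ligand genes Tnf and Ltb and of the 2 receptor genes are shown because the results below turn on these 4 genes. Capitals mark the motif matches, and each window is written 5′ to 3′ along its gene.
Tnf, chr17:35201958-35202257, minus strand: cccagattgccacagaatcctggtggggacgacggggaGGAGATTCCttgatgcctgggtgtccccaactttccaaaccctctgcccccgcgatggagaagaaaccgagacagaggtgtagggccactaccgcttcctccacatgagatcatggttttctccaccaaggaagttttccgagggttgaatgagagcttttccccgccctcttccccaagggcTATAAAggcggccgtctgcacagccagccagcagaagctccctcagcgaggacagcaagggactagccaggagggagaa
Ltb, chr17:35194257-35194556, plus strand: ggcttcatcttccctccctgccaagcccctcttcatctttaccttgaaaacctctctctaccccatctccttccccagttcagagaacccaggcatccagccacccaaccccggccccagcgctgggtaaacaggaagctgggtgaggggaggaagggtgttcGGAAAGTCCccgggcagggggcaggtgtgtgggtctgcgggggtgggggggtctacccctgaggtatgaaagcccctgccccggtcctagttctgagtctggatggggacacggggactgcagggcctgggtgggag
Tnfrsf1b, chr4:145246821-145247120, minus strand: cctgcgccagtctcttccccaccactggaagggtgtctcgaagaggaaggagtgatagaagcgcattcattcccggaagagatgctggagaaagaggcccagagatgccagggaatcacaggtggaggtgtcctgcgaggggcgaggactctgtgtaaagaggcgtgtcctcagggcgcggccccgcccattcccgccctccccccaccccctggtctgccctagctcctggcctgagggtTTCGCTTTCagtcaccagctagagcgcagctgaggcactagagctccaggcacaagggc
Tnfrsf1a, chr6:125349473-125349772, plus strand: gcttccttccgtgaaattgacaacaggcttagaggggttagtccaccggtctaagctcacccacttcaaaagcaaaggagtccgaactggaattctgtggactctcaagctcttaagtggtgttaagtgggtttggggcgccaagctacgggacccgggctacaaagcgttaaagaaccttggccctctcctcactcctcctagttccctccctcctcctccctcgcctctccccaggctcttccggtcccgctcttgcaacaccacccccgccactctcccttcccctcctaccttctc

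The Tnf window held an NF-kB-like match that begins 212 bases before the start and a TATA box that begins 29 bases before it. In the Ltb window an NF-kB-like match on the minus strand begins 87 bases before the start, and in the Tnfrsf1b window an interferon-response-like match on the minus strand begins 9 bases before it. None of the 4 motifs was found in the windows of Tnfrsf1a, Tnfsf10 and Tnfsf15. Tnfsf14 had an AP-1 match, and Tnfsf13b, with 2 windows, had an AP-1 and an interferon-response-like match. Over all 32851 windows of the table the NF-kB-like motif was present in 4.259%, the AP-1 motif in 7.808%, the interferon-response-like motif in 8.56% and the TATA box in 13.616%. A match describes the letters of a window and does not show that a factor binds there.

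The 3′ UTRs of the members, taken from GENCODE M21, were also searched for the AU-rich nonamer TTATTTATT. Tnf had 5 copies, overlapping ones included, in its 764-base 3′ UTR, and Tnfsf13b had 1 copy in 3631 bases. The other 7 members had none. Among 21037 genes with a 3′ UTR, 7.658% had at least 1 copy and 0.2% (42 genes) had 5 or more. The 30 bases that hold 4 of the 5 copies of Tnf (bases 435 to 464 of its 3′ UTR) and the copy of Tnfsf13b (bases 1622 to 1651) are shown with the nonamers in capitals.
Tnf: ttaTTATTTATTATTTATTTATTATTTATT
Tnfsf13b: ctgttcatttcattggcccatTTATTTATT

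LPS raised 6 of the 9 members in succinate mice and the same number in control mice: the ligands Tnf, Tnfsf9, Tnfsf10, Tnfsf15 and Ltb and the receptor Tnfrsf1b were the 6 in each case. In succinate mice Tnfsf14 and Tnfrsf1a were called lower. In control mice no member was called lower, though the LPS libraries lay below the unstimulated ones in Tnfrsf1a there too. Over all tested genes 14.1% were called higher and 16.2% lower with LPS in succinate mice, and 15.3% were called higher and 14.8% lower in control mice (edgeR's quasi-likelihood test, Benjamini-Hochberg adjusted p below 0.05). The median log2 fold change of the 9 members was 1.74 in succinate mice, against -0.017 over all tested genes, and 2.16 in control mice, against -0.0036 over all tested genes.

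**Figure D1:**
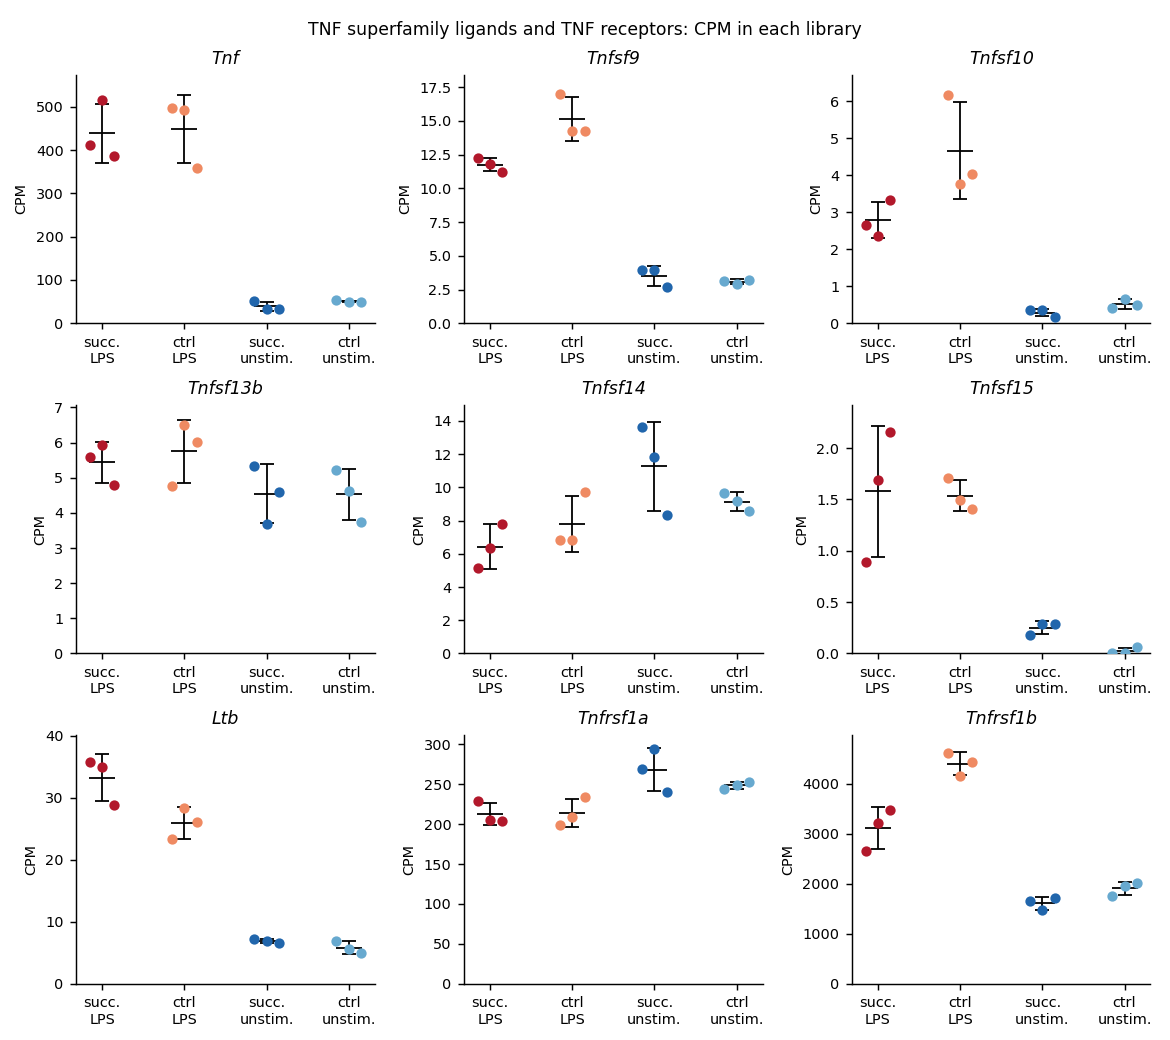
CPM of each of the 9 genes (vertical axes, each from 0) in the 12 libraries, with succinate mice with LPS, control mice with LPS, unstimulated succinate mice and unstimulated control mice from left to right. Points are libraries, and the bar and whiskers are the mean and SD of 3 libraries. All LPS libraries lie above all unstimulated libraries for Tnf, Tnfsf9, Tnfsf10, Tnfsf15, Ltb and Tnfrsf1b, and for Tnfrsf1b the succinate libraries with LPS (2656 to 3468 CPM) lie below the control libraries with LPS (4156 to 4603 CPM).

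Tnf, which encodes the founding inflammatory cytokine of the family, had 413, 516 and 387 CPM with LPS in succinate mice, against 50.4, 34.1 and 32.2 CPM unstimulated. In control mice Tnf had 497, 492 and 358 CPM with LPS, against 52.6, 50.01 and 49.3 CPM unstimulated. All LPS libraries were above all unstimulated ones, and the LPS libraries of the 2 kinds of mice overlapped. The log2 fold change with LPS was 3.49 ± 0.17 (SE, adjusted p = 6.26e-09) in succinate mice, an 11.3-fold rise, and 3.15 ± 0.17 (adjusted p = 1.20e-08) in control mice, an 8.86-fold rise. The difference between these 2 LPS effects was 0.35 ± 0.24 on the log2 scale (unadjusted p = 0.176, adjusted p = 0.9999), with a 95% interval of -0.18 to 0.87.

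Ltb encodes lymphotoxin beta, which anchors lymphotoxin alpha at the membrane as the ligand of the receptor LTBR. With LPS it had 35.8, 34.96 and 28.9 CPM in succinate mice, against 7.28, 6.89 and 6.54 CPM unstimulated. In control mice the levels with LPS were 23.4, 28.4 and 26.1 CPM, against 6.94, 5.53 and 4.93 CPM unstimulated. LPS libraries stood above unstimulated ones in both kinds of mice, and the log2 fold changes were 2.27 ± 0.15 (adjusted p = 6.17e-08) in succinate mice and 2.16 ± 0.15 (adjusted p = 9.55e-08) in control mice.

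Tnfsf9 encodes 4-1BB ligand, a co-stimulator of T cells. Succinate mice had 12.2, 11.8 and 11.2 CPM of it with LPS, against 3.94, 3.97 and 2.67 CPM unstimulated. Control mice had 17.0, 14.2 and 14.2 CPM with LPS, against 3.12, 2.88 and 3.24 CPM unstimulated. The libraries with LPS were above those without it, by 1.74 ± 0.18 (adjusted p = 3.89e-06) on the log2 scale in succinate mice and by 2.29 ± 0.18 (adjusted p = 2.84e-07) in control mice. The difference between the LPS effects was -0.56 ± 0.26 (unadjusted p = 0.0476, adjusted p = 0.9999).

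Tnfsf10 encodes TRAIL, a ligand of death receptors. Its levels were low: 2.67, 2.37 and 3.34 CPM with LPS in succinate mice, against 0.352, 0.350 and 0.171 CPM unstimulated. In control mice they were 6.16, 3.77 and 4.04 CPM with LPS, against 0.405, 0.661 and 0.499 CPM unstimulated. These values rest on 155 and 222 counts summed over the 3 LPS libraries of succinate and control mice, and on 15 and 26 counts over the unstimulated ones. LPS raised Tnfsf10 by 3.23 ± 0.41 (adjusted p = 1.07e-05) on the log2 scale in succinate mice and by 3.14 ± 0.36 (adjusted p = 5.68e-06) in control mice.

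Tnfsf15 encodes TL1A, the ligand of the receptor DR3 and a cytokine studied in intestinal inflammation. Its raw counts were 17, 30 and 40 with LPS in succinate mice, against 3, 5 and 5 unstimulated, and 28, 23 and 22 with LPS in control mice, against 0, 0 and 1 unstimulated. The level with LPS was thus above that of unstimulated cells in every library, at levels of at most 2.15 CPM. In succinate mice the log2 fold change was 2.61 ± 0.53 (adjusted p = 0.00101). In control mice, with a single count in the unstimulated group, the ratio of the summed counts per library size was 76.9 with an exact 95% counting interval of 13.4 to 3079 (adjusted p = 2.29e-05). The difference between the LPS effects rests on that single count and did not pass the test (-3.20 ± 1.43 on the log2 scale, unadjusted p = 0.00717, adjusted p = 0.9999).

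Tnfsf14 encodes LIGHT, a ligand of the receptors HVEM (Tnfrsf14) and LTBR. It had 5.12, 6.37 and 7.80 CPM with LPS in succinate mice, against 13.6, 11.8 and 8.36 CPM unstimulated, and 6.83, 6.82 and 9.74 CPM with LPS in control mice, against 9.66, 9.20 and 8.55 CPM unstimulated. In succinate mice all LPS libraries were below all unstimulated ones, while in control mice the groups overlapped. The log2 fold change was -0.81 ± 0.22 (adjusted p = 0.0118) in succinate mice and -0.23 ± 0.22 (adjusted p = 0.488) in control mice. The call in succinate mice was lost without replicate 1 of the unstimulated libraries (-0.65, adjusted p = 0.0534) and without replicate 1 of the LPS libraries (-0.67, adjusted p = 0.0563), and the difference between the LPS effects did not pass the test (-0.58 ± 0.31, unadjusted p = 0.0835, adjusted p = 0.9999).

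Tnfsf13b encodes BAFF, a survival factor of B cells that myeloid cells produce. With LPS it had 5.60, 5.92 and 4.79 CPM in succinate mice and 4.76, 6.49 and 6.03 CPM in control mice. Unstimulated cells had 5.35, 3.68 and 4.61 CPM in succinate mice and 5.21, 4.63 and 3.74 CPM in control mice. All 4 groups overlapped with their neighbours in the order of means. The log2 fold change with LPS was 0.26 ± 0.21 (adjusted p = 0.402) in succinate mice, with a 95% interval of -0.20 to 0.72, and 0.34 ± 0.22 (adjusted p = 0.263) in control mice, with an interval of -0.12 to 0.81.

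Of the receptors, Tnfrsf1b (TNFR2) was by far the higher one in the 12 libraries. It had 2656, 3214 and 3468 CPM with LPS in succinate mice, against 1658, 1463 and 1706 CPM unstimulated. Control mice had 4603, 4156 and 4432 CPM with LPS, against 1753, 1948 and 2014 CPM unstimulated. No 2 of the 4 groups overlapped, and the order of means from highest to lowest was control with LPS, succinate with LPS, control unstimulated and succinate unstimulated. LPS raised Tnfrsf1b by 0.95 ± 0.12 (adjusted p = 2.78e-05) on the log2 scale in succinate mice, a 1.93-fold rise, and by 1.21 ± 0.12 (adjusted p = 2.60e-06) in control mice, a 2.31-fold rise. The difference between the LPS effects was -0.25 ± 0.17 (adjusted p = 0.9999), with a 95% interval of -0.62 to 0.11.

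Tnfrsf1a (TNFR1) had 229, 205 and 204 CPM with LPS in succinate mice, against 269, 294 and 241 CPM unstimulated. In control mice it had 199, 209 and 234 CPM with LPS, against 244, 249 and 253 CPM unstimulated. LPS libraries were below unstimulated ones in both kinds of mice. The log2 fold change was -0.33 ± 0.11 (adjusted p = 0.0264) in succinate mice, a called fall, and -0.22 ± 0.11 (adjusted p = 0.138) in control mice, which was not called. The difference between the LPS effects did not pass the test (-0.11 ± 0.15, unadjusted p = 0.461, adjusted p = 0.9999). The call in succinate mice was lost in 9 of 21 alternatives. It was lost without filter (adjusted p = 0.129), with the 5-gene library class as a covariate (adjusted p = 0.0830) and with only the 2 groups compared (adjusted p = 0.0992). Leaving out 1 library ended it for replicate 2 or 3 of unstimulated control mice (0.0602 and 0.0617), replicate 2 of unstimulated succinate mice (0.104), replicate 2 of control mice with LPS (0.0600) and replicate 2 or 3 of succinate mice with LPS (0.105 and 0.0858), all as adjusted p. The direction was kept in each of these.

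**Figure D2:**
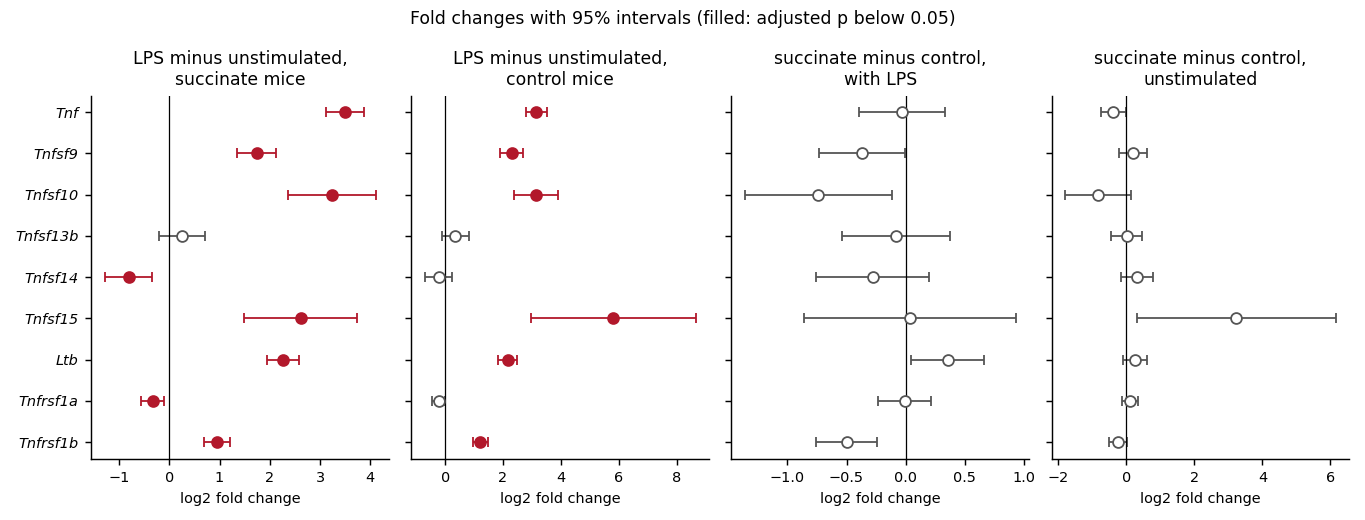
Log2 fold change of each gene (horizontal axes, scaled separately in each panel) in 4 comparisons, namely LPS minus unstimulated in succinate mice, the same in control mice, succinate minus control with LPS and succinate minus control in unstimulated cells. Circles are estimates of the edgeR fit with 95% intervals, and filled circles mark an adjusted p below 0.05. Filled circles stand only in the LPS panels, 8 for succinate mice and 6 for control mice.

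Succinate was the other comparison, in cells with LPS and in unstimulated cells. No member passed the test in either, nor in the interaction of succinate with LPS. Among all tested genes 0.0628% (9 genes) were called between succinate and control mice with LPS, 0% in unstimulated cells and 0% in the interaction. At an unadjusted p below 0.05 there were 4, 2 and 2 of the 9 members in these 3 comparisons, and 11.7% (1680), 3.73% (535) and 3.91% (560) of all tested genes. DESeq2 called 337, 1 and 3 of all genes and limma-voom 34, 0 and 0, and of the members DESeq2 called only Tnfrsf1b, with LPS. The fit without filter called 694, 72 and 71 of 28563 genes, and of the members also only Tnfrsf1b, with LPS.

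With LPS, the member with the smallest p between succinate and control mice was Tnfrsf1b, with a mean of 3113 ± 415 CPM in succinate mice and 4397 ± 226 CPM in control mice (SD, n = 3 each). The log2 difference was -0.50 ± 0.12 (unadjusted p = 0.00103, adjusted p = 0.104), or a ratio of 0.708 with a 95% interval of 0.591 to 0.848. The adjusted p was 0.00346 by DESeq2 and 0.0244 without filter, and between 0.0511 and 0.496 in the other alternatives, with the same direction in each. It was -0.48 (adjusted p = 0.0668) with the 5-gene library class as a covariate. The summed level of the Ly6C-high monocyte markers was also lower in succinate mice with LPS, without overlap (means of 9834 and 11604 CPM in succinate and control mice). Mitochondrial transcripts took 1.22 to 1.26% of the counts in succinate mice with LPS and 0.984 to 1.07% in control mice with LPS. The part of either in the Tnfrsf1b difference was not tested. In unstimulated cells the 3 succinate libraries were likewise below the 3 control ones in Tnfrsf1b (1609 ± 129 against 1905 ± 135 CPM), by -0.24 ± 0.12 on the log2 scale (adjusted p = 0.958).

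Tnfsf9 and Tnfsf10 were likewise lower in every succinate library with LPS than in every control library with LPS, and neither passed the test. For 3 libraries against 3 that do not differ, such separation in either direction has a probability of 0.1. The share of all tested genes that separated in this way was not counted for this or any other comparison. Tnfsf9 averaged 11.8 ± 0.496 CPM in succinate mice and 15.2 ± 1.61 CPM in control mice, a log2 difference of -0.37 ± 0.17 (unadjusted p = 0.0486, adjusted p = 0.422). Tnfsf10 averaged 2.79 ± 0.496 CPM in succinate mice and 4.65 ± 1.31 CPM in control mice, a log2 difference of -0.74 ± 0.29 (unadjusted p = 0.0234, adjusted p = 0.333). Without replicate 1 of control mice with LPS, the library highest in both genes, the differences were -0.28 and -0.49. In unstimulated cells Tnfsf10 was lower in all 3 succinate libraries as well (-0.83 ± 0.46, adjusted p = 0.958), on 15 counts in succinate mice and 26 in control mice, while Tnfsf9 overlapped.

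Ltb lay on the other side: all 3 succinate libraries with LPS were above all 3 control libraries with LPS, with means of 33.2 ± 3.77 CPM and 26.0 ± 2.54 CPM. The log2 difference was 0.36 ± 0.14 (unadjusted p = 0.0266, adjusted p = 0.350). Markers of lymphocytes are given beside it. The summed level of 8 B cell markers was 127 to 149 CPM in succinate mice with LPS and 74.1 to 132 CPM in control mice with LPS, and these ranges overlapped. Ighm made up means of 113 and 79.1 CPM of these sums. The log2 difference was positive for all 7 tested markers, with a median of 0.51, and none of the 7 was called. The sum was 170 to 230 CPM in unstimulated succinate mice and 126 to 153 CPM in unstimulated control mice. T and NK cell markers summed to 33.5 to 45.4 CPM in succinate mice with LPS and 19.3 to 31.8 CPM in control mice with LPS, without overlap, and Nkg7 made up means of 36.6 and 25.5 CPM of them. Neither of the 2 T and NK cell markers that were tested, Nkg7 (adjusted p = 0.248) and Lck (adjusted p = 0.274), was called. The defining T cell markers Cd3d, Cd3e and Cd3g were at means of at most 0.418 CPM in each of the 4 groups, and the NK cell receptor gene Ncr1 had 0 counts in both unstimulated groups and 1 count in each LPS group. The part of these cells in the Ltb difference was not tested.

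**Figure D3:**
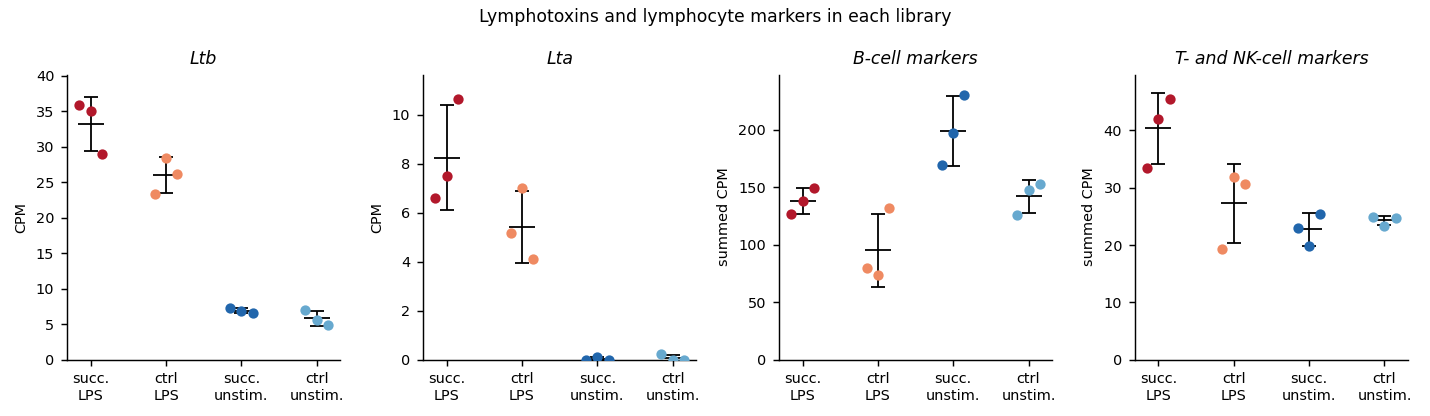
CPM of Ltb and Lta and summed CPM of the B cell and of the T and NK cell markers (vertical axes, each from 0) in the 12 libraries, with groups ordered as succinate with LPS, control with LPS, succinate unstimulated and control unstimulated. Points are libraries, and the bar and whiskers are the mean and SD of 3 libraries. Ltb is at 28.9 to 35.8 CPM in the succinate libraries with LPS and at 23.4 to 28.4 CPM in the control libraries with LPS, and the B cell sum is at 127 to 149 CPM and 74.1 to 132 CPM in the same libraries.

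Tnf itself did not separate the 2 kinds of mice with LPS. Its mean was 439 ± 68.1 CPM in succinate mice and 449 ± 78.6 CPM in control mice (SD, n = 3 each), a log2 difference of -0.03 ± 0.17 (adjusted p = 0.961). The 95% interval of the ratio was 0.759 to 1.26, and a difference within these bounds was not excluded by these libraries. In unstimulated cells Tnf averaged 38.9 ± 10.01 CPM in succinate mice and 50.7 ± 1.76 CPM in control mice. Replicates 2 and 3 of succinate mice were below all control libraries and replicate 1 was among them, and the log2 difference was -0.38 ± 0.18 (unadjusted p = 0.0475, adjusted p = 0.958).

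Tnfsf15 differed in unstimulated cells on very few counts. There were 13 counts over the 3 unstimulated succinate libraries and 1 count over the 3 control ones, a ratio of 12.6 with an exact 95% counting interval of 1.89 to 533, which covers counting error only (unadjusted p = 0.00335, adjusted p = 0.958). With LPS the means were 1.58 ± 0.639 CPM in succinate mice and 1.54 ± 0.153 CPM in control mice, and the groups overlapped. The 3 other members also overlapped between succinate and control mice in both states. With LPS their log2 differences were -0.08 ± 0.21 for Tnfsf13b, -0.28 ± 0.22 for Tnfsf14 and -0.01 ± 0.11 for Tnfrsf1a, and in unstimulated cells 0.004 ± 0.22, 0.30 ± 0.22 and 0.11 ± 0.11 in the same order of genes. For Tnfrsf1a with LPS the 95% interval of the ratio was 0.852 to 1.16.

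Levels can be compared between genes only per length, so the make-up of the ligands was taken from RPKM (CPM divided by the exonic length in kilobases). Tnf made up 87.9 ± 1.24% of the summed RPKM of the 7 ligands with LPS in succinate mice, 88.4 ± 2.07% with LPS in control mice, 62.3 ± 3.54% in unstimulated succinate mice and 72.2 ± 1.03% in unstimulated control mice (SD, n = 3 each). The unstimulated succinate libraries (58.5 to 65.6%) were all below the unstimulated control libraries (71.1 to 73.1%). Tnfsf14 filled 1.17 ± 0.343%, 1.42 ± 0.565%, 16.1 ± 1.83% and 11.5 ± 0.278% in the same order of groups, and Ltb 7.26 ± 0.829%, 5.64 ± 1.11%, 12.3 ± 1.82% and 8.90 ± 1.13%. These shares depend on which ligands are summed. The ligand gene Tnfsf12, for one, is not among the 7 and averaged 28.5 and 38.5 CPM in unstimulated succinate and control mice. With 3 libraries against 3, an exact permutation test of such a share cannot give a 2-sided p below 0.1.

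Tnfrsf1b made up 90.7 ± 1.75% of the summed RPKM of the 2 receptors with LPS in succinate mice, 93.3 ± 0.641% with LPS in control mice, 80.2 ± 2.87% in unstimulated succinate mice and 83.8 ± 0.756% in unstimulated control mice. In each state all succinate libraries were below all control ones: 88.7 to 92.0% against 92.8 to 94.0% with LPS, and 77.1 to 82.8% against 83.0 to 84.4% unstimulated. This share depends only on the ratio of Tnfrsf1b to Tnfrsf1a. It restates their levels given above, where neither gene was called between succinate and control mice, and it was not tested. The mean level of Tnfrsf1b was 815 RPKM with LPS in succinate mice, rank 30 of 14319 genes with a length, and 1152 RPKM with LPS in control mice, rank 21. Tnf was at 268 RPKM (rank 137) with LPS in succinate mice and 274 RPKM (rank 151) in control mice, against 23.7 RPKM (rank 2200) and 30.9 RPKM (rank 1683) in the unstimulated cells of succinate and control mice. The other receptor, Tnfrsf1a, was at 82.2 RPKM with LPS in succinate mice, 82.5 RPKM with LPS in control mice, 103 RPKM in unstimulated succinate mice and 96.1 RPKM in unstimulated control mice.

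**Figure D4:**
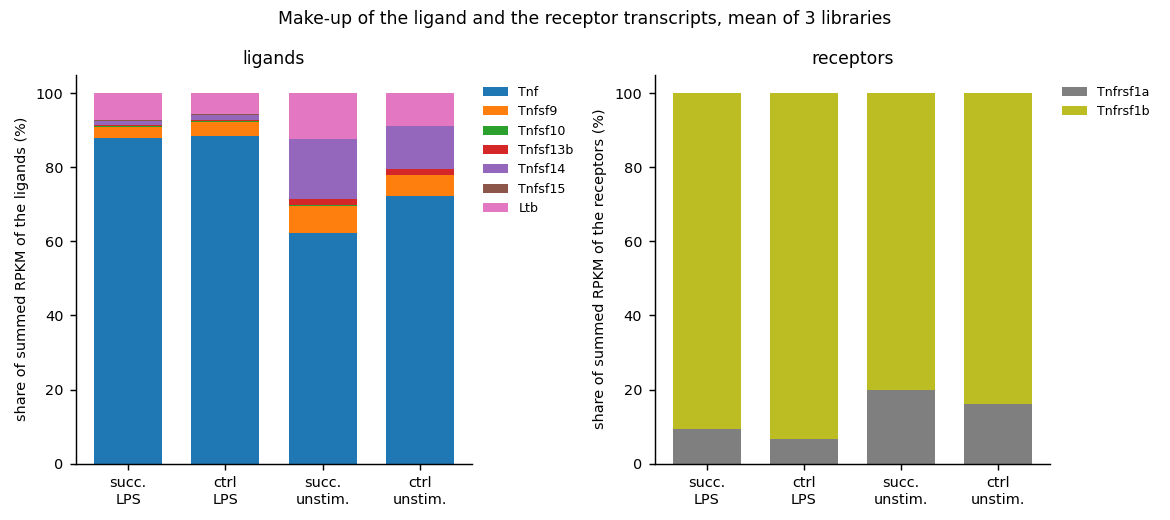
Share of each gene in the summed RPKM (vertical axes, percent, from 0) of the 7 ligands (left) and of the 2 receptors (right), as means of 3 libraries per group. Groups run from succinate with LPS over control with LPS and succinate unstimulated to control unstimulated. Tnf fills 87.9% and 88.4% of the ligand bars with LPS, and Tnfrsf1b fills 80.2% or more of every receptor bar.

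The remaining genes of the TNF axis were described by 4 lists: other ligands, other receptors, proteins that signal from the receptors, and proteins that shed the ligands or control their mRNA. Among the other ligands 5 of 11 passed the filter, of which 2 rose and 2 fell with LPS in succinate mice and likewise in control mice. Over all tested genes 14.1% were called higher and 16.2% lower in succinate mice, and 15.3% and 14.8% in control mice. The pair that rose was Lta, which encodes lymphotoxin alpha, and Tnfsf4, which encodes OX40 ligand. Lta averaged 8.25 ± 2.13 CPM with LPS in succinate mice, on 457 counts against 2 counts in unstimulated cells, a ratio of 213 with an exact 95% counting interval of 58.7 to 1766 (adjusted p = 8.94e-07). In control mice it averaged 5.43 ± 1.47 CPM with LPS, against 0.0771 ± 0.134 CPM unstimulated (log2 5.96 ± 0.94, adjusted p = 3.83e-06). Like Ltb it was not called between succinate and control mice with LPS (0.60 ± 0.37, adjusted p = 0.580). Tnfsf4 rose by 3.08 ± 0.83 (adjusted p = 0.00774) on the log2 scale in succinate mice. In control mice it had 159 counts with LPS and 3 unstimulated, a ratio of 55.8 with an interval of 18.8 to 274 (adjusted p = 4.99e-04).

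The pair of other ligands that fell was Tnfsf12, which encodes TWEAK, and Tnfsf13, which encodes APRIL. Tnfsf12 averaged 6.05 ± 0.470 CPM with LPS in succinate mice, against 28.5 ± 2.17 CPM unstimulated, and 8.65 ± 0.876 CPM with LPS in control mice, against 38.5 ± 2.997 CPM unstimulated. Its log2 fold changes were -2.23 ± 0.13 (adjusted p = 1.65e-08) in succinate mice and -2.15 ± 0.13 (adjusted p = 1.77e-08) in control mice. Tnfsf13 fell by 1.42 on the log2 scale in succinate mice (adjusted p = 0.00208) and by 1.52 in control mice (adjusted p = 0.00126). Tnfrsf12a, which encodes the TWEAK receptor Fn14, also fell, by 1.97 (adjusted p = 9.96e-04) and 1.86 (adjusted p = 0.00186) in the same order of mice. Fasl, Cd40lg and Cd70, ligands known mainly from lymphocytes, had 22, 2 and 1 counts over all 12 libraries and were among the 6 ligands under the filter.

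Of the other receptors 19 of 26 passed the filter. With LPS 10 rose and 2 fell in succinate mice, against 14.1% and 16.2% of all tested genes. In control mice 9 rose and 2 fell, against 15.3% and 14.8%. The median log2 fold changes of these receptors were 0.74 and 0.63 in the same order of mice. Cd40, a co-stimulatory receptor of antigen-presenting cells, averaged 85.3 ± 25.1 CPM with LPS in succinate mice, against 3.60 ± 0.708 CPM unstimulated, and 116 ± 21.9 CPM with LPS in control mice, against 3.44 ± 0.839 CPM unstimulated (log2 4.56 and 5.07, adjusted p = 1.01e-08 and 3.91e-09). The death receptor gene Fas rose by 2.37 ± 0.28 in succinate mice and 2.45 ± 0.28 in control mice (adjusted p = 1.96e-05 and 1.45e-05). Tnfrsf14, the receptor of LIGHT, rose by 1.03 and 1.14 (adjusted p = 5.86e-04 and 2.33e-04), and Tnfrsf8, which encodes CD30, by 1.64 and 1.59 (adjusted p = 7.95e-05 and 9.02e-05). Ltbr, the receptor of the Ltb product, was called lower in succinate mice (-0.34 ± 0.10, adjusted p = 0.0204) and not in control mice (-0.16 ± 0.10, adjusted p = 0.279). Cd27, a lymphocyte receptor gene at 1.74 CPM in unstimulated control mice, fell in control mice with LPS (-1.46 ± 0.42, adjusted p = 0.0139) and was not called in succinate mice (-0.61 ± 0.39, adjusted p = 0.255). In the interaction of succinate with LPS none of the 19 receptors, Ltbr and Cd27 included, was called, and 0 had an unadjusted p below 0.05 in the edgeR test.

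Of the 36 genes of receptor signalling, all tested, 18 rose and 3 fell with LPS in succinate mice, against 14.1% and 16.2% of all tested genes. In control mice 21 of the 36 rose and 3 fell, against 15.3% and 14.8%. The median log2 fold change was 0.34 in succinate mice and 0.52 in control mice. Among those that rose was Tnfaip3, the gene of the ubiquitin-editing enzyme A20, which rose by 3.54 ± 0.17 in succinate mice and 3.82 ± 0.17 in control mice (adjusted p = 6.01e-09 and 2.76e-09), and its partner Tnip1 rose by 2.21 and 2.35. Traf1, an adaptor that binds TNFR2, rose by 3.94 ± 0.21 and 4.11 ± 0.21 (adjusted p = 1.27e-08 and 7.56e-09), and the NF-kB subunit gene Nfkb1 by 1.89 and 2.21. The 3 genes that fell were Ripk3, Ripk1 and Tab1 in both kinds of mice. Ripk3, the kinase of necroptosis, averaged 52.6 ± 3.95 CPM with LPS in succinate mice, against 143 ± 7.12 CPM unstimulated, and 68.8 ± 1.69 CPM with LPS in control mice, against 134 ± 7.23 CPM unstimulated (log2 -1.44 and -0.96, adjusted p = 5.35e-08 and 2.10e-06). Ripk1 fell by 0.49 and 0.37 (adjusted p = 0.00156 and 0.0107) and Tab1, which encodes a partner of the kinase TAK1, by 0.44 and 0.47 (adjusted p = 0.0342 and 0.0247).

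Among the genes of shedding and mRNA control 17 of 18 passed the filter. With LPS 4 of them rose and 4 fell in succinate mice, against 14.1% and 16.2% of all tested genes. In control mice 5 rose and 4 fell, against 15.3% and 14.8%. Adam17, the sheddase of TNF and its receptors, was not called, with 453 ± 28.0 CPM with LPS in succinate mice, against 435 ± 23.8 CPM unstimulated, and 517 ± 41.5 CPM with LPS in control mice, against 462 ± 34.2 CPM unstimulated. Its partner gene Rhbdf2, which encodes iRhom2, rose by 0.57 ± 0.13 in succinate mice and 0.97 ± 0.13 in control mice (adjusted p = 0.00462 and 5.82e-05), and the low Rhbdf1 by 1.28 and 1.60 (adjusted p = 0.0240 and 0.00777). The intramembrane protease gene Sppl2a rose by 0.53 and 0.90 (adjusted p = 0.0122 and 2.09e-04), while Sppl2b fell by 1.09 and 1.05 (adjusted p = 4.26e-04 and 5.82e-04). Zc3h12a, which encodes the RNase Regnase-1, rose by 1.78 ± 0.16 and 1.86 ± 0.16 (adjusted p = 9.83e-07 and 6.53e-07). Zfp36, which encodes the AU-rich element binding protein tristetraprolin, was not called, with log2 differences of -0.09 ± 0.13 in succinate mice and 0.31 ± 0.13 in control mice. Its relatives Zfp36l2 and Zfp36l1 fell, with Zfp36l2 at 202 ± 11.2 CPM with LPS in succinate mice, against 978 ± 71.5 CPM unstimulated, and 190 ± 21.4 CPM with LPS in control mice, against 1018 ± 69.8 CPM unstimulated (log2 -2.27 and -2.42, adjusted p = 3.36e-09 and 1.89e-09). Zfp36l1 fell by 2.11 and 2.52 (adjusted p = 0.00111 and 2.58e-04). Adam17, Zfp36 and the lymphocyte ligands under the filter lie outside the rule by which genes were named and were picked with their values known.

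**Figure D5:**
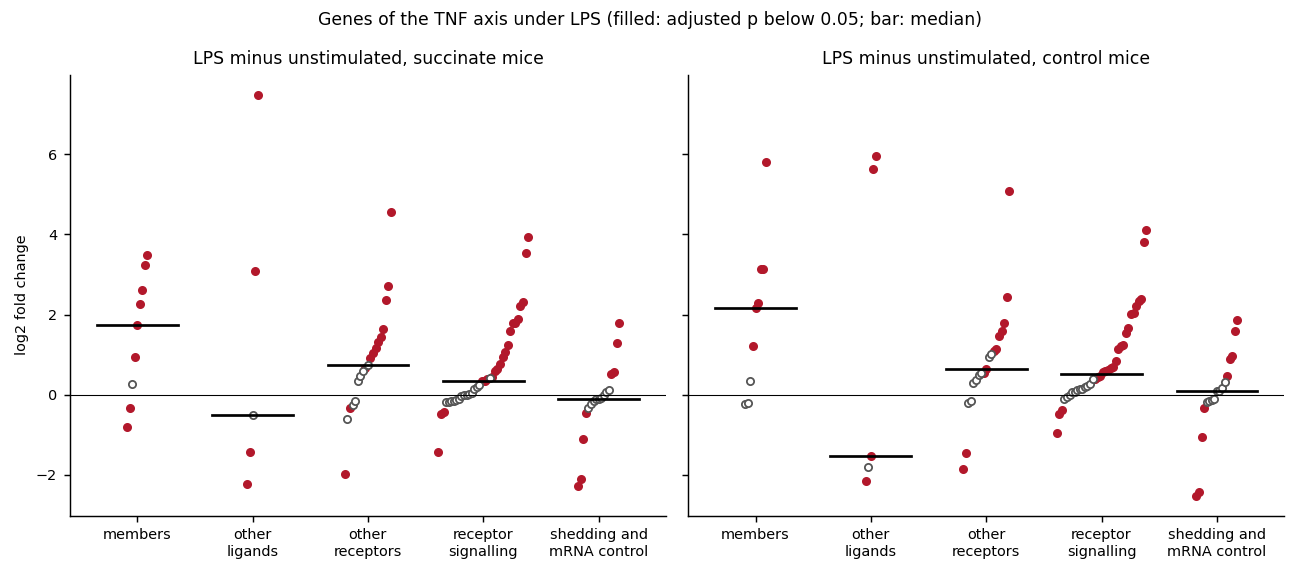
Log2 fold change with LPS (vertical axis) of each tested gene in the 9 members and the 4 lists, in succinate mice (left) and control mice (right). Each circle is a gene, filled where the adjusted p was below 0.05, and bars mark the medians. The medians of the members stand at 1.74 and 2.16. Those of the other ligands stand at -0.51 and -1.52, on 5 genes of which 2 were called higher and 2 lower in each panel.

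Between succinate and control mice no gene of the 4 lists was called by edgeR or limma-voom, either with LPS or unstimulated. None was called in the interaction by edgeR, limma-voom or DESeq2. DESeq2 called 3 signalling genes (Otulin, Ripk3 and Traf5) and 2 of shedding and mRNA control (Litaf and Sppl2a) with LPS, all lower in succinate mice, and none unstimulated. With LPS 12 of the 36 signalling genes had an unadjusted p below 0.05, all of them lower in succinate mice. Over all tested genes the share was 11.7%, or 1680 genes, of which 1172 were lower and 508 higher. The median of the signalling list was -0.15, against -0.01 over all tested genes. The lowest adjusted p among the signalling genes was 0.0847, that of Traf5, an adaptor of several receptors of the family (-1.07 ± 0.25, picked with its value known). Tnfaip3 (-0.46 ± 0.17, adjusted p = 0.305), Nfkb1 (-0.32 ± 0.14, adjusted p = 0.384) and Ripk3 (-0.39 ± 0.10, adjusted p = 0.107) were among the 12. In the shedding and mRNA control list 5 of 17 genes had an unadjusted p below 0.05, all lower, and in the other ligands and the other receptors 1 of 5 and 0 of 19. In unstimulated cells 1 of the 5 other ligands had an unadjusted p below 0.05 and 0 genes of the other 3 lists, against 3.73% of all tested genes. In the interaction 4 of the 36 signalling genes and 1 of the 17 of shedding and mRNA control had one, against 3.91% of all tested genes. Among the other ligands and the other receptors there were 0.

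The pattern of each member over the 12 libraries was set beside that of 7940 genes with a mean of at least 10 CPM, by Pearson's r of log2 CPM, as a description. The genes share the 12 libraries, and a gene that differs between LPS and unstimulated cells has a high r with any other such gene. Tnf was most like the chemokine genes Ccl4 (r = 0.995) and Cxcl2 (0.994) and the endothelin gene Edn1 (0.993). Ltb was most like Cd69 (0.995), Ccl3 (0.992) and Cyld (0.992), and Tnfsf9 most like Optn (0.996), Ttc39c (0.994) and Sp140 (0.993). Tnfsf10 stood nearest to Ifi205 (0.987), Lrrc32 (0.984) and Ifit1 (0.984), of which Ifi205 and Ifit1 are interferon-inducible genes. Tnfsf15 stood nearest to Trim21 (0.974), Ccr7 (0.970) and Slfn9 (0.960).

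Tnfrsf1b was most like Nrp2 (0.987), Jarid2 (0.987) and Birc3 (0.986), the last of which encodes the ubiquitin ligase cIAP2 of the TNF receptor complexes. Genes near Tnfrsf1a included Klhdc3 (0.972) and Thrap3 (0.969), and the nearest of Tnfsf14 were Nfil3 (0.960), Evi5 (0.892) and Rars (0.890). Tnfsf13b had the weakest neighbours, Anxa1 (0.846), Emc6 (0.827) and Gid8 (0.819). Among the members themselves Tnf and Tnfsf9 were the most alike pair (0.973), and Tnf and Tnfrsf1a the least (-0.854).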

How the data were processed

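RNA of sorted mouse bone marrow monocytes was measured in 12 libraries. Each deposited file holds raw read counts per gene, not normalised by the authors. The submitters' processing notes name the tool Trim Galore and the genome mm10. Which aligner and counter were used, and whether strand was used, is not given in the sources used here. Total RNA was extracted with Trizol, per the labels. Groups were taken from the sample titles.

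Counts were tested with edgeR 4.0.16 (R 4.3.3): filterByExpr left 14324 genes and removed 14239 (at least 99.87% of each library's counts were kept), libraries were scaled by TMM, and 1 quasi-likelihood model over the 12 libraries, with a mean for each group, gave 5 contrasts (LPS in succinate mice, LPS in control mice, succinate with LPS, succinate unstimulated, and the interaction). P-values were adjusted by Benjamini-Hochberg over all tested genes and called below 0.05, 2-sided. Common biological variation was 0.167. CPM use TMM-scaled library sizes, log2 CPM a prior count of 2, and RPKM the exonic lengths of GENCODE M21. Where a group had 1 to 3 counts, a ratio with an exact 95% interval is given, which covers counting error only. Same-numbered libraries of unstimulated succinate and control mice deviated from their group means together (r of 0.116 to 0.260 in 3 of 3 pairs). The labels name no pairing, and the model behind the reported p-values held none. The replicate number was used as a block only in an alternative. In the other comparisons not every pair was above 0.1. The script was tested on simulated data.

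The members, gene lists and marker lists were chosen with earlier results of these data known. Named were all members, the genes with the smallest p in each list (up to 4 per direction for LPS in control mice and up to 2 in other contrasts, among called genes) and the 3 genes most like each member, of which 1 is not reported here. Alternatives were DESeq2 1.42.0, limma-voom (limma 3.58.1), RLE scaling, library size alone, no filter, a stricter filter (1 CPM in 6 libraries), a replicate block, a library class covariate, only the 2 groups compared, and leaving out each library.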

Additional observations from a re-analysis of the deposited data

How the results depend on the processing

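Over 45 results (9 genes in 5 comparisons) and 21 alternatives, 927 values were computed, of which 876 kept their direction and their side of the threshold. The number of members called was 7 to 8 for LPS in succinate mice and 5 to 7 for LPS in control mice over these alternatives (Tnfsf15 was not tested under the stricter filter), 0 for succinate in unstimulated cells and 0 for the interaction. For succinate with LPS it was 0 except without filter and with DESeq2, where it was 1, Tnfrsf1b. In these settings 694 and 337 of all genes were called in that comparison, against 9 in the main fit. Tnfrsf1a became called for LPS in control mice with library size alone (-0.30, adjusted p = 0.0437). Library size alone moved the median of all genes between succinate and control mice with LPS to 0.11 on the log2 scale, against -0.01 with TMM.

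All 37 values that changed sign were of uncalled results near 0, and the cause was not tested. For succinate with LPS they were 0.0854 (Tnf), 0.0377 (Tnfsf13b) and 0.117 (Tnfrsf1a) with library size alone, -0.0627 (Tnfsf15) with limma-voom, and for Tnfrsf1a 0.0074 without filter, 0.0205 with the library class as a covariate and 0.0208 with only the 2 groups compared. For succinate in unstimulated cells Tnfsf13b was -0.0201 without filter, -0.00604 with RLE, -0.00678 with DESeq2 and -0.0030 with limma-voom, and its interaction was 0.00551 with library size alone. Leaving out 1 library gave, for succinate with LPS, -0.174 to 0.0473 (Tnf), -0.212 to 0.0109 (Tnfsf13b), -0.257 to 0.322 (Tnfsf15) and -0.0660 to 0.0592 (Tnfrsf1a), for succinate unstimulated -0.129 to 0.135 (Tnfsf13b), and for the interaction -0.177 to 0.341 (Tnfsf10), -0.218 to 0.0460 (Tnfsf13b) and -0.0435 to 0.213 (Ltb).

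Outside the comparison of unstimulated succinate and control mice, same-numbered libraries deviated together (r over 0.1) in fewer pairs. These were 2 of 3 pairs for LPS in control mice, 1 of 3 for LPS in succinate mice and 0 of 3 for succinate with LPS. Of all 12 libraries, 6 correlated best with one of their own number. With the replicate number as a block, 8 members were called for LPS in succinate mice, 6 for LPS in control mice and 0 in the other 3 comparisons, as without it, and the uncalled difference of Tnfsf15 between succinate and control mice with LPS was -0.0410. Depth limits Tnfsf15 and Tnfsf10 most, with 1 to 26 counts per unstimulated group.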
